A study of Homo sapiens with 24 samples.

Results

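MV411 and MOLM13 are established human acute myeloid leukaemia lines that are often used side by side, because both carry a fusion of the MLL gene (KMT2A) and an FLT3 gene with an internal tandem duplication. In MV411 the fusion partner is AFF1 (AF4), and in MOLM13 it is MLLT3 (AF9). The 6 libraries compared here are the 3 MV411 and the 3 MOLM13 cultures that received the solvent DMSO and no drug, out of 24 libraries in the series. Libraries were assigned to a line by their labels, and the comparison itself was chosen with earlier results of these data known. MOLM13 was kept in DMSO for 4 days, whereas the labels give no duration for DMSO in MV411, whose menin inhibitor arm lasted 3 days. Both lines grew in liquid culture, a spike-in RNA mix was added to the harvested cells, and polyadenylated RNA was sequenced as paired 50 bp reads. The triplicates are called biological, but how the cultures of a line were kept apart is not described, so the spread between them may be partly technical. The lines were handled as separate experiments and deposited in separately normalised tables, so line, batch and DMSO duration cannot be told apart. For that reason only large and wholly separated differences are called.

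MLL normally writes an active chromatin mark at developmental genes and is held there by the adaptor protein menin. A fusion protein keeps the menin-binding part of MLL and brings in a partner that recruits elongation factors and the methyltransferase DOT1L, which holds genes such as the HOXA cluster and MEIS1 in an active state. FLT3 is a receptor tyrosine kinase, and the internal duplication makes it signal without its ligand, mainly to STAT5 and the ERK pathway. Such leukaemias often stop along the path from the granulocyte-monocyte progenitor to the monocyte, and lines differ in how many monocytic genes they use.

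Each library held 25166887 to 27240357 reads assigned to genes. Values are reads per 1000000 of these (RPM), so they are shares of a library and not amounts per cell, and bulk libraries cannot tell fewer cells of a type from less RNA per cell. Libraries of 1 line were close to each other, with a correlation across genes of 0.998 in the 6 pairs, against 0.817 to 0.825 in the 9 pairs between lines. The median standard deviation of a gene between replicates was 0.0654 on the log2 scale in MV411 and 0.0524 in MOLM13. The white-cell gene PTPRC, which encodes CD45, was present in both lines at 276, 294 and 275 RPM in MV411 and 252, 265 and 264 RPM in MOLM13. Of the other myeloid markers used to check the label, CD33, SPI1, CD68, LYZ, MPO, CSF3R and FCGR1A were also measured in both lines.

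Of 25680 genes in each table, 13114 had at least 1 RPM in 3 or more of the 6 libraries and were compared. A gene was called when its mean log2(RPM + 0.5) differed by at least 2, which is 4-fold, and all 3 libraries of one line lay above all 3 of the other. By this rule 1568 genes differed between the lines, of which 1002 (7.64%) were higher in MV411 and 566 (4.32%) were higher in MOLM13. Separation alone was common, since 11711 genes (89.3%) were wholly apart at any size. The smallest two-sided p that an exact permutation test of 3 against 3 libraries can give is 0.1, so no p-value is given for a gene. Models across all genes at an adjusted p (Benjamini-Hochberg) under 0.05 called most genes: edgeR's quasi-likelihood test 88.7%, the same with replicate numbers as a block 88.9%, DESeq2 86.4% and limma 89.0%. At 2-fold, 2601 genes (19.8%) were higher in MV411 and 1662 (12.7%) in MOLM13, and at 16-fold the counts were 171 (1.30%) and 168 (1.28%). The median difference of all genes, MV411 minus MOLM13, was 0.10 on the log2 scale, and the 5th to 95th percentile ran from -1.81 to 2.47. In each direction 83 called genes had no read at all in the lower line. A gene could enter through 1 line alone, so the counts of list members below describe the lines and are not tests of a list. Each count is to be read beside the 7.64% and 4.32% of all genes called.

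**Figure D1:**
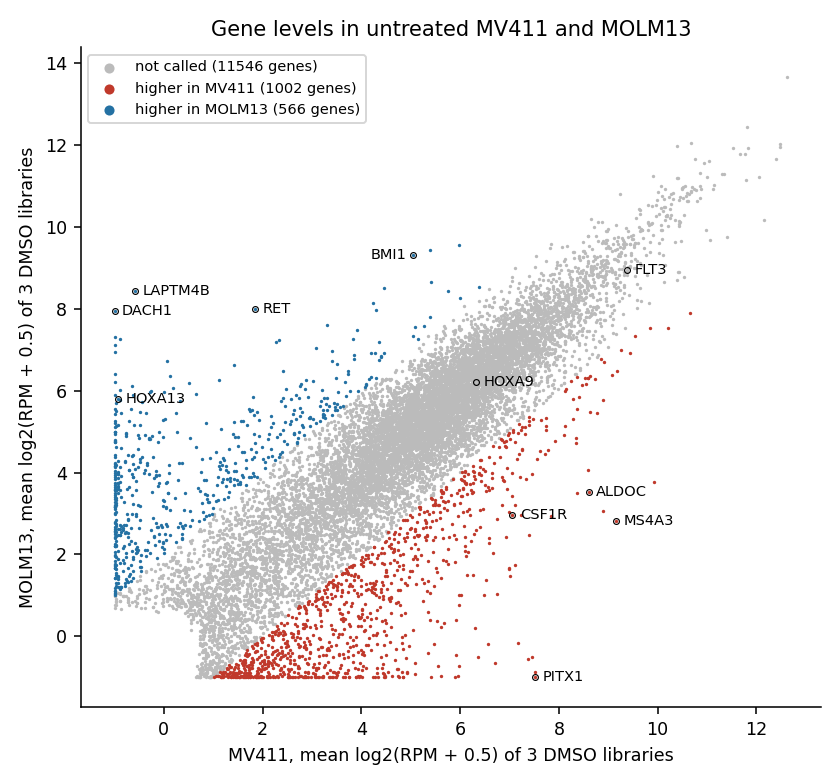
Each point is 1 of the 13114 genes, placed by its mean log2(RPM + 0.5) over the 3 DMSO libraries of MV411 (horizontal) and of MOLM13 (vertical). Coloured points are the 1002 genes called higher in MV411 and the 566 called higher in MOLM13, and points at -1 have no reads. FLT3 and HOXA9 lie near the diagonal, while PITX1, DACH1 and LAPTM4B lie at its far sides.

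The split of calls moved with the base composition of the transcripts. In the decile of genes with the lowest GC share the median difference was -0.47, with 37 genes called higher in MV411 and 79 in MOLM13. In the decile with the highest GC share it was 0.90, with 181 called higher in MV411 and 25 in MOLM13. Measured against OCI-AML3, a line without an MLL fusion, the median of MOLM13 went from 0.11 to -0.91 between these ends and that of MV411 from -0.37 to 0.01. Of the 13114 genes 12707 had a known GC share, and the rest could not be adjusted. Subtracting the median of each GC class left 743 of these 12707 (5.85%) higher in MV411 and 569 (4.48%) higher in MOLM13. Of them 700 and 479 were also called without the adjustment. The share of calls that were higher in MV411 went from 63.9% to 56.6%, and with the deposited values unscaled it was 54.7%, where the median of all genes lay at -0.16. For the genes and lists described below, a change of call after GC adjustment is stated beside them, and the part of GC share in any single difference was not tested.

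Like most genes compared, those of the fusion machinery differed by less than 4-fold between the lines, apart from 2 genes. MEN1, which encodes menin, was at 49.4, 45.5 and 48.4 RPM in MV411 and 47.6, 45.1 and 48.9 RPM in MOLM13, a log2 difference of 0.02 ± 0.0489 (SE, n = 3 and 3 libraries, as for all differences below). DOT1L differed by 0.08 ± 0.0627. KMT2A, the gene cut in the fusion, was at 240.5, 241 and 227 RPM in MV411 and 117, 128 and 116 RPM in MOLM13, which is 1.97 times as high in MV411 and short of the 4-fold rule. Its partner in MV411, AFF1, was the higher in MOLM13, at 199, 200.54 and 189 RPM in MV411 and 354, 348 and 325 RPM in MOLM13. MLLT3, the partner in MOLM13 and a regulator of haematopoietic stem cells, was at 1.92, 1.71 and 1.89 RPM in MV411 and 17.7, 20.4 and 20.0001 RPM in MOLM13, a 10.5-fold difference. Counts per gene do not separate the fusion transcripts from those of the intact genes. Of the 24 genes listed as fusion partners or members of the menin and DOT1L complexes, 23 were compared, and AFF3 was the only one called higher in MV411 (2.00 ± 0.0881) while MLLT3 was the only one called higher in MOLM13. Over all genes 7.64% were called higher in MV411 and 4.32% higher in MOLM13. The AFF3 call was lost after GC adjustment (1.43).

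Core targets of MLL fusions were present in both lines at levels less than 4-fold apart. MEIS1, the cofactor of HOX proteins, was at 91.5, 88.1 and 87.4 RPM in MV411 and 50.6, 47.7 and 47.8 RPM in MOLM13 (0.86 ± 0.0343), and PBX3, which binds DNA with it, differed by 0.01 ± 0.0347. FLT3 was at 652, 662 and 692 RPM in MV411 and 479, 506 and 491 RPM in MOLM13, a difference of 0.44 ± 0.0341. CDK6, the cell-cycle kinase, differed by -0.06 ± 0.0478, MYB by 0.42 ± 0.0228, BCL2 by 0.30 ± 0.0175 and MEF2C by -0.97 ± 0.0275. Of the 28 targets listed outside the HOX clusters 25 were compared. Their median difference was 0.09 against 0.10 for all genes. Called higher were 2 in MV411 and 4 in MOLM13, beside 7.64% and 4.32% of all genes. Some of those higher in MOLM13 were nearly silent in MV411. DACH1, a nuclear factor of developing tissues, had 0, 0 and 0 RPM in MV411 and 249, 249 and 244 in MOLM13, at least 6448-fold higher. HMGA2, a chromatin protein of embryonic and stem cells, had 0, 0 and 0 and 32.9, 32.8 and 28.5 RPM, at least 819-fold higher in MOLM13. SKIDA1 was at 0.0753, 0.318 and 0.265 RPM in MV411 and 43.6, 46.7 and 42.6 RPM in MOLM13. Bounds here and intervals below reflect counting error alone, and a bound sets 3 reads for a line without reads. CCNA1, a cyclin of germ and myeloid leukaemia cells, went the other way, at 78.3, 65.6 and 79.5 RPM in MV411 and 4.48, 5.27 and 3.83 RPM in MOLM13.

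The HOXA cluster divided into a shared part and a part used by MOLM13. HOXA genes lie in a row on chromosome 7 and encode homeodomain proteins that set position in the embryo and keep blood progenitors immature. HOXA9 (hg38 chromosome 7, 27162438 to 27165537), the member most tied to MLL leukaemia, was at 84.9, 77.4 and 75.2 RPM in MV411 and 74.0, 75.5 and 70.8 RPM in MOLM13, a difference of 0.11 ± 0.0591. HOXA10 was at 53.4, 52.1 and 51.7 RPM in MV411 and 74.8, 74.2 and 73.9 RPM in MOLM13, which is 1.42 times as high in MOLM13. The other 8 HOXA genes compared were all called higher in MOLM13, so 8 of 10 were higher there and 0 in MV411, and HOXA2 fell below the minimum. The list had a median of -3.26, or -3.58 with genes without reads at their bound.

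Members on both sides of HOXA9 and HOXA10 were concerned. Towards the 5' end of the cluster, HOXA13 (hg38 chromosome 7, 27194364 to 27200091) was at 0.0377, 0.0397 and 0 RPM in MV411 and 53.3, 57.0 and 55.2 RPM in MOLM13, a ratio of 2154 with a 95% interval of 596 to 17789, and HOXA11 was at 0.188, 0.159 and 0.114 RPM in MV411 and 35.2, 34.5 and 35.4 RPM in MOLM13, a ratio of 228. On the other side HOXA7 had 0, 0 and 0 RPM in MV411 and 8.52, 8.44 and 8.42 in MOLM13, at least 220.3-fold higher. HOXA5 was at 0, 0.0397 and 0.0379 RPM in MV411 and 11.2, 11.2 and 10.4 RPM in MOLM13. HOXA3 had 0, 0 and 0 and 6.90, 6.08 and 6.40 RPM, at least 169-fold higher in MOLM13. HOXA4 and HOXA6 differed by -2.15 ± 0.0866 and -2.71 ± 0.0934. HOXA2 had 0, 0 and 0.0379 RPM in MV411 and 0.955, 1.59 and 1.03 in MOLM13. The non-coding genes HOXA-AS2, HOXA-AS3, HOXA11-AS and HOTTIP, which lie among them, were called in the same direction, at -2.06, -4.35, -3.59 and -3.36. Several of these gene models overlap on opposite strands, and whether the counting used strand is not given in the sources used here, so reads of antisense partners cannot be told apart. GC adjustment left all 8 calls in place. Of 10 HOXB genes only HOXB3 and HOXB4 were compared. HOXB4 was at 3.99, 3.70 and 3.82 RPM in MV411 and 0.0734, 0.0774 and 0.158 RPM in MOLM13 (2.85 ± 0.0706).

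**Figure D2:**
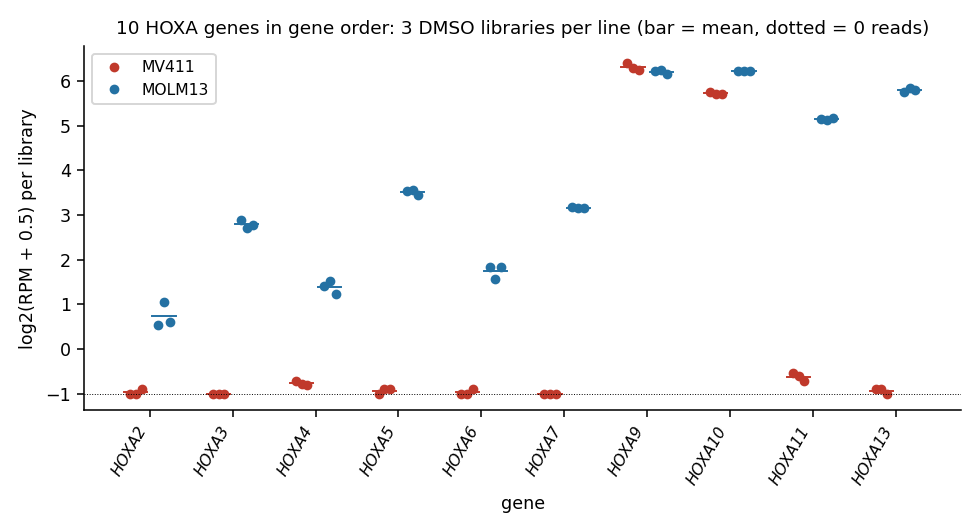
Log2(RPM + 0.5) of 10 HOXA genes in gene order, with 1 point per DMSO library, a bar at the mean of 3 and a dotted line at 0 reads. The lines meet at HOXA9 and HOXA10, and at the other genes the MV411 points lie at or near 0 reads and below every MOLM13 point.

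MV411 carried more RNA of monocyte genes than MOLM13. Of 37 monocyte and macrophage markers 23 were compared, 11 were called higher in MV411 and 0 in MOLM13, with a median of 1.90, or 1.57 and again 11 calls after GC adjustment. CSF1R, the receptor that drives monocyte survival and growth (hg38 chromosome 5, 150053295 to 150113365), was at 125, 133 and 139 RPM in MV411 and 6.06, 7.90 and 8.22 RPM in MOLM13, 18.0-fold higher. LYZ, which encodes the bactericidal enzyme lysozyme, was at 1243, 1150.3 and 1148 RPM in MV411 and 185, 183 and 186 RPM in MOLM13. ITGAX, the integrin subunit CD11c, was at 72.9, 86.4 and 71.2 RPM in MV411 and 2.39, 2.25 and 2.29 RPM in MOLM13. MPEG1, a pore-forming protein of macrophages, was at 93.6, 106 and 104 RPM in MV411 and 3.27, 3.79 and 3.68 RPM in MOLM13. F13A1, the clotting factor subunit made by monocytes, was at 13.4, 13.4 and 14.3 RPM in MV411 and 0.367, 0.426 and 0.514 RPM in MOLM13, and the scavenger receptor gene CD36 was at 72.5, 70.4 and 66.7 RPM in MV411 and 6.97, 8.40 and 8.26 RPM in MOLM13. All 6 of these genes were called, so the rule itself requires their lowest MV411 library to lie above the highest MOLM13 library. Other markers of the list were less than 4-fold apart, with ITGAM (CD11b) at 19.5, 19.7 and 20.48 RPM in MV411 and 14.1, 13.8 and 14.8 RPM in MOLM13. In 3 of the 23 the libraries were wholly apart with MOLM13 above, which were CTSS, a lysosomal protease (mean 70.1 RPM in MV411 and 140.3 in MOLM13), MNDA (11.8 and 22.8) and KLF4, a transcription factor of monocytes (4.56 and 6.72). CD14 was below the minimum in both lines, at 0.301, 0.358 and 0.379 RPM and 0.110, 0.0774 and 0.0791 RPM.

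Surface receptors of the immunoglobulin-like and lectin families held the most called genes, by number, of the 41 lists examined. By share of compared genes other lists stood higher, among them the HOXA cluster (8 of 10) and the chemoattractant receptors (9 of 14). Over all genes 7.64% were called higher in MV411 and 4.32% higher in MOLM13. Siglecs bind sialic acid, leukocyte Ig-like receptors (LILR) bind major histocompatibility molecules, and most of these receptors set thresholds for activation of myeloid cells. Of 59 listed genes 39 were compared, 21 were called higher in MV411 and 0 in MOLM13, and the median was 2.20, or 2.03 with 20 calls after GC adjustment. SIGLEC12 had 55.7, 59.6 and 61.1 RPM in MV411 and 0, 0 and 0 in MOLM13, at least 1535-fold higher. SIGLEC6 was at 32.4, 27.7 and 29.9 RPM in MV411 and 0, 0.0387 and 0.119 RPM in MOLM13. SIGLEC5 had 12.1, 14.1 and 12.8 and 0, 0 and 0 RPM, at least 339-fold higher. SIGLEC14, a near copy of SIGLEC5 in its outer part, was at 11.7, 13.2 and 12.9 RPM in MV411 and 0.0367, 0.0387 and 0.0395 RPM in MOLM13, and reads of the pair may be split between them. TREM1, which amplifies inflammatory signals, was at 17.2, 12.7 and 18.1 RPM in MV411 and 0.330, 0.271 and 0.198 RPM in MOLM13. LILRB4 was present in both lines but higher in MV411, at 315, 305 and 316 RPM in MV411 and 39.9, 40.8 and 36.3 RPM in MOLM13. CD33 itself, the Siglec used as a drug target in this leukaemia, was at 118, 118 and 129 RPM in MV411 and 47.9, 41.6 and 43.3 RPM in MOLM13, 2.75 times as high in MV411 and short of the rule.

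Pattern receptors were called in the same direction. Of 30 genes listed for toll-like receptors and inflammasomes 22 were compared, 9 were called higher in MV411 and 0 in MOLM13, with a median of 1.05 (0.72 and 9 calls after GC adjustment). TLR2 was at 172, 200.1 and 189.8 RPM in MV411 and 19.5, 19.2 and 20.47 RPM in MOLM13 and TLR4 at 49.9, 49.9 and 47.4 RPM in MV411 and 6.13, 4.88 and 5.93 RPM in MOLM13. CD180, a relative of TLR4, was at 98.0, 90.9 and 96.2 RPM in MV411 and 5.03, 5.11 and 4.23 RPM in MOLM13. NOD2, an inner sensor of bacterial wall fragments, was at 36.0, 38.2 and 37.3 RPM in MV411 and 1.87, 2.05 and 2.57 RPM in MOLM13, and NLRP1, an inflammasome sensor, at 40.9, 48.8 and 44.9 RPM in MV411 and 2.53, 2.32 and 3.28 RPM in MOLM13. For these 5 receptors the ratio of means ran from 8.68 (TLR4) to 19.8 (CD180).

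**Figure D3:**
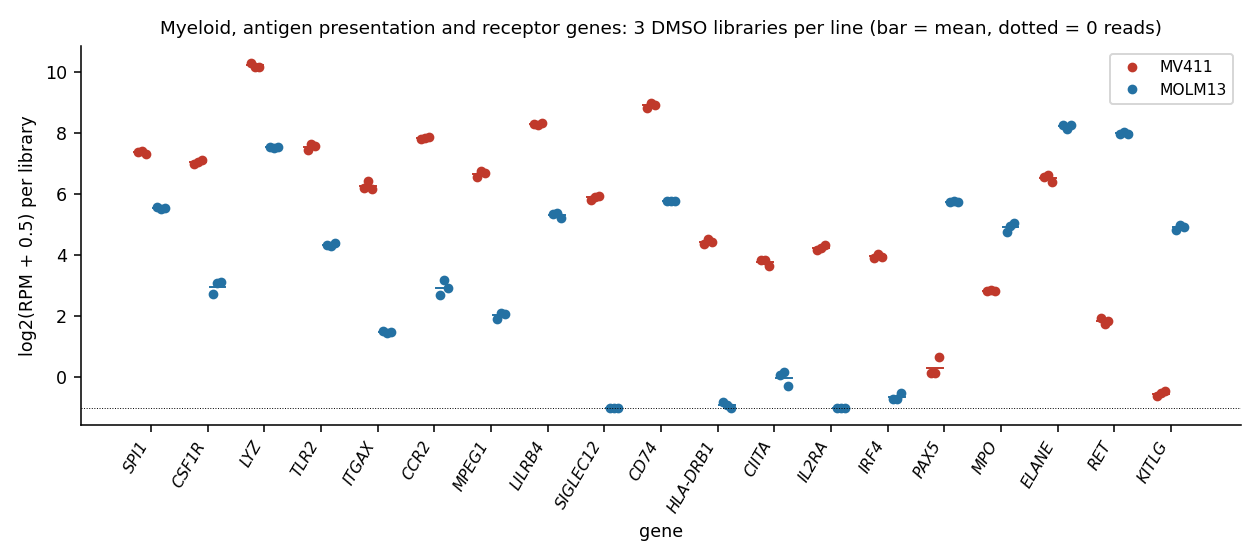
Log2(RPM + 0.5) of 19 genes of myeloid maturation, antigen presentation and receptors, with 1 point per DMSO library and a bar at the mean of 3, the dotted line marking 0 reads. Points of the lines do not overlap at any of the 19 genes, which the rule requires of every called gene. PAX5, MPO, ELANE, RET and KITLG are the 5 with MOLM13 above.

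Receptors for chemokines and other chemoattractants, which steer monocytes to inflamed tissue, were called higher in MV411 in 9 of the 14 genes compared and in MOLM13 in 0, out of 26 listed, with a median of 2.43 (2.64 after GC adjustment). CCR2, the receptor of classical monocytes, was at 221, 226 and 234 RPM in MV411 and 5.95, 8.60 and 7.11 RPM in MOLM13, 31.5-fold higher. Its neighbour CCR1 was at 92.4, 97.2 and 94.2 RPM in MV411 and 12.3, 12.6 and 11.03 RPM in MOLM13. PTAFR, the receptor for platelet-activating factor, was at 48.1, 55.5 and 53.2 RPM in MV411 and 2.57, 3.10 and 3.60 RPM in MOLM13, and CXCR2, a receptor for CXCL8, at 19.1, 20.6 and 20.3 RPM in MV411 and 1.87, 1.12 and 1.42 RPM in MOLM13. Ligands followed less evenly. Of 53 chemokines and cytokines 23 were compared, 8 were called higher in MV411 and 3 in MOLM13, with a median of 1.41. IGF1 was at 22.3, 20.9 and 19.01 RPM in MV411 and 0.147, 0.387 and 0.119 RPM in MOLM13. CXCL8, which attracts neutrophils, was at 15.6, 11.7 and 11.3 RPM in MV411 and 0.147, 0.310 and 0.158 RPM in MOLM13, CCL2, the ligand of CCR2, at 6.18, 8.07 and 7.19 RPM in MV411 and 0, 0.116 and 0.0395 RPM in MOLM13, and SPP1, osteopontin, at 15.5, 8.90 and 14.6 RPM in MV411 and 0.220, 0.349 and 0.672 RPM in MOLM13. KITLG, the ligand of the receptor KIT, went the other way at 0.151, 0.199 and 0.227 RPM in MV411 and 28.0, 30.9 and 29.6 RPM in MOLM13, a 154-fold difference. CXCL10 and CXCL11 were the other 2 called higher in MOLM13 (-2.30 ± 0.197 and -2.02 ± 0.121), and both calls were lost after GC adjustment (-1.74 and -1.46), which left 9 and 1.

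Cytokine receptors were called higher in MV411 in 6 of 26 genes compared and in MOLM13 in 2, out of 32 listed, with a median of 1.42. The shares of all genes were 7.64% and 4.32%. IL2RA, the alpha chain of the interleukin-2 receptor and a STAT5 target, had 17.5, 18.4 and 19.5 RPM in MV411 and 0, 0 and 0 in MOLM13, at least 482-fold higher. The shared chains CSF2RB and IL2RG were at 90.3, 90.8 and 81.4 and 18.8, 20.3 and 23.2 RPM in MV411 and 8.04, 8.91 and 7.47 and 1.73, 1.63 and 1.46 RPM in MOLM13. IL10RA, the receptor chain for interleukin-10, was at 37.4, 36.9 and 34.6 RPM in MV411 and 3.52, 3.21 and 3.64 RPM in MOLM13. OSMR, the oncostatin M receptor, had 0, 0 and 0 RPM in MV411 and 5.95, 4.57 and 5.18 in MOLM13, at least 137-fold higher in MOLM13. CSF3R, the receptor for the granulocyte growth factor, differed by 2.14 ± 0.0534 and lost its call after GC adjustment (1.54). The list still held 6 and 2 calls after adjustment, so another member was called higher in MV411 only then. CSF2RA and IL3RA had 0 reads in every library, and whether their reads were lost in mapping was not tested.

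Receptor tyrosine kinases split evenly, with 4 called higher in each line among 16 compared out of 34 listed, and a median of 0.65. The shares of all genes were 7.64% higher in MV411 and 4.32% higher in MOLM13. RET, a receptor of neural crest and some leukaemia cells (hg38 chromosome 10, 43077069 to 43130351), was at 3.35, 2.86 and 3.07 RPM in MV411 and 248, 259 and 250.5 RPM in MOLM13, 81.5-fold higher in MOLM13. FGFR1, a fibroblast growth factor receptor, was at 10.7, 9.38 and 10.1 RPM in MV411 and 129, 122 and 126 RPM in MOLM13. On the MV411 side, beside CSF1R, EPHB6 was at 15.1, 14.3 and 13.8 RPM in MV411 and 0.441, 0.503 and 0.514 RPM in MOLM13 and LTK at 17.2, 16.2 and 15.8 RPM in MV411 and 0.587, 0.736 and 0.553 RPM in MOLM13. KIT, the receptor for the ligand that MOLM13 transcribes, was low in both lines, at 4.22, 4.49 and 3.56 RPM in MV411 and 0.697, 0.503 and 0.553 RPM in MOLM13, and was called higher in MV411. Leukocyte integrins, which anchor cells to vessel walls and matrix, were called higher in MV411 in 7 of 18 compared and in MOLM13 in 1, out of 26 listed, with 6 and 1 after GC adjustment. ITGA2B, the platelet integrin subunit CD41, was at 32.6, 32.6 and 35.0 RPM in MV411 and 0.220, 0.0774 and 0.119 RPM in MOLM13, ITGB7 at 91.8, 103 and 92.0 RPM in MV411 and 4.44, 4.26 and 4.47 RPM in MOLM13, and ITGAL, the subunit of LFA-1, at 1592, 1616 and 1607 RPM in MV411 and 235, 244 and 235 RPM in MOLM13. ITGAV, which forms receptors for vitronectin, was the 1 higher in MOLM13, at 4.33, 3.74 and 3.52 RPM in MV411 and 29.5, 31.6 and 29.3 RPM in MOLM13.

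RNA of class II antigen presentation genes was higher in MV411. Class II molecules show peptides to helper T cells and are made by B cells, dendritic cells and activated monocytes. Their genes carry a shared promoter module of X and Y boxes, bound by the RFX and NF-Y factors, which recruit the coactivator CIITA. The promoter windows of 3 of the class II genes called here are printed so that the module can be seen beside the values. They run from 250 bases before to 50 after the start site, are from RefSeq on GRCh38.p14 and lie on the minus strand of chromosome 6 (HLA-DRB1 at chr6:32589799-32590098, HLA-DRB5 at chr6:32530238-32530537, HLA-DQB1 at chr6:32666608-32666907). Capitals mark 2 motifs, CTGATTGG, the core of the Y box, and ACTGATGAT, the end of the X box.
HLA-DRB1: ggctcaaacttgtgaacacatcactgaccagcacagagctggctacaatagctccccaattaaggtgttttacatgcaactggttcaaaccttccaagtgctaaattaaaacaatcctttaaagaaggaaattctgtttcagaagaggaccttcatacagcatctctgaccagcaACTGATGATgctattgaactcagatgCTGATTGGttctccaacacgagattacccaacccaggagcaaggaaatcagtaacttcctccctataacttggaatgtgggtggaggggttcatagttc
HLA-DRB5: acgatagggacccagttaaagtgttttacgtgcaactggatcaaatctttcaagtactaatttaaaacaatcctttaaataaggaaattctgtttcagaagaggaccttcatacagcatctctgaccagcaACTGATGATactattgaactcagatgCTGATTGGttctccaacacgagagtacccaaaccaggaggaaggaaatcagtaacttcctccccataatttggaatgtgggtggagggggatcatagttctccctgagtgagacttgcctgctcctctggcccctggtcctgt
HLA-DQB1: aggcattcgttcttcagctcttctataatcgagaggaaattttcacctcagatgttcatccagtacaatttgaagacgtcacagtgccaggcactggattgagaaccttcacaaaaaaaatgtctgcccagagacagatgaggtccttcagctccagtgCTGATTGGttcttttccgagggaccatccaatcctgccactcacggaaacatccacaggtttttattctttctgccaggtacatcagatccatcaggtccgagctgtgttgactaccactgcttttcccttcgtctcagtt
Both motifs stand in the HLA-DRB1 and HLA-DRB5 windows and the Y box alone in that of HLA-DQB1. Searched on both strands without overlap of the motifs, CTGATTGG was in 1393 of 35116 promoter windows of this length (3.97%) and ACTGATGAT in 67 (0.191%). Of the 10 class II genes compared 7 had a window in the table, 4 with CTGATTGG and 2 with ACTGATGAT, and a window without these letters says nothing about the factor. The fourth Y box lay in the window of RFX5, which was not called, and CD74, which was called, had neither motif in its window. Listed genes below the minimum held the motifs too, HLA-DMA both, HLA-DQA2 and HLA-DQB2 the Y box and HLA-DMB the end of the X box.

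HLA-DRB1 was at 19.996, 22.8 and 21.1 RPM in MV411 and 0.0734, 0.0387 and 0 RPM in MOLM13, a ratio of 556 with a 95% interval of 189.8 to 2697. HLA-DRB5 had 2.64, 3.497 and 3.37 RPM in MV411 and 0, 0 and 0 in MOLM13, at least 82.6-fold higher, and as a near-identical copy of HLA-DRB1 it may take reads from it. HLA-DRA, the partner chain of both, was at 6.10, 8.23 and 7.19 RPM in MV411 and 0.147, 0.232 and 0.198 RPM in MOLM13. HLA-DQB1 was at 18.0, 22.3 and 17.9 RPM in MV411 and 1.10, 0.968 and 1.11 RPM in MOLM13. CD74, the invariant chain that guides class II molecules, was abundant in MV411 and present in MOLM13, at 447, 501 and 486 RPM in MV411 and 54.0, 54.6 and 54.4 RPM in MOLM13, 8.79-fold higher. CIITA was at 13.7, 13.7 and 11.9 RPM in MV411 and 0.551, 0.620 and 0.316 RPM in MOLM13, a difference of 3.78 ± 0.154. These 6 genes were all called higher in MV411 among the 10 compared of 19 listed, with 0 higher in MOLM13, and the list's median was 3.00, or 3.29 with bounds, and 2.63 after GC adjustment. The other 4, RFX5, RFXAP, RFXANK and CTSS, differed by less than 4-fold. Genes of the HLA region vary between people, and how well each line's alleles match the reference was not tested. Some listed genes of antigen presentation had few or no reads in either line. HLA-E was at 0.188, 0.715 and 0.114 RPM in MV411 and 0, 0 and 0.0395 RPM in MOLM13. PSMB9 had 0 reads in every library, whereas B2M had a mean of 1087 RPM in MV411 and 831 RPM in MOLM13. Elsewhere among the listed genes, TNF, LTA, LTB, AIF1, DDR1 and IER3 also had 0 reads in every library. Whether reads of these or of the HLA genes were lost in mapping was not tested, so their values may fall short of the RNA present.

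Class I presentation, used by nearly all cells, gave 1 call in each direction among 10 genes compared of 18 listed, with a median of -0.15. For this list and the interferon list below, the shares of all genes were 7.64% higher in MV411 and 4.32% higher in MOLM13. HLA-B, one of the classical class I genes, was at 321, 346 and 313 RPM in MV411 and 25.1, 25.1 and 27.2 RPM in MOLM13, and ERAP2, a peptidase that trims peptides for class I, was at 9.53, 11.96 and 10.6 RPM in MV411 and 76.1, 83.6 and 78.4 RPM in MOLM13. Interferon response genes were mixed, with 9 of 46 compared called higher in MV411 and 3 in MOLM13, out of 53 listed, and a median of 0.11 (9 and 2 after GC adjustment). IFITM1, a membrane protein that hinders virus entry, was at 40.2, 43.9 and 46.3 RPM in MV411 and 3.82, 3.87 and 3.28 RPM in MOLM13. IFI30, a reductase of the endosome, was at 53.6, 57.8 and 51.6 RPM in MV411 and 4.74, 5.11 and 4.70 RPM in MOLM13, and OASL at 5.39, 4.69 and 5.72 RPM in MV411 and 0.0734, 0.116 and 0.0395 RPM in MOLM13. PARP12, an interferon-induced mono-ADP-ribosyltransferase, was at 1.28, 1.75 and 1.21 RPM in MV411 and 20.04, 20.3 and 19.7 RPM in MOLM13, and led the 3 higher in MOLM13.

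**Figure D4:**
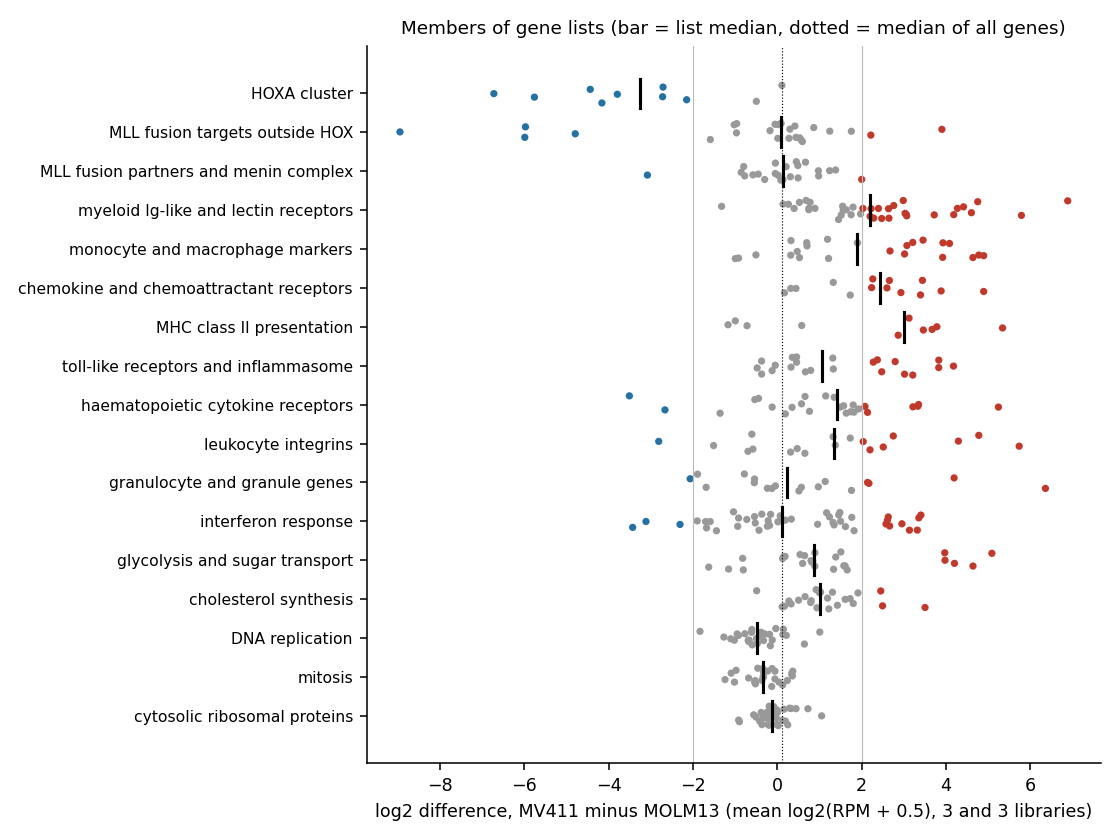
Log2 differences of mean log2(RPM + 0.5), MV411 minus MOLM13, for the compared members of 17 gene lists, with 1 point per gene, red and blue where called, a bar at the list's median, grey lines at 4-fold and a dotted line at the median of all genes, 0.10. The HOXA points lie mostly to the left, the receptor, monocyte and class II points mostly to the right, and no DNA replication, mitosis or ribosomal protein gene passes 4-fold.

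Granule and granulocyte genes were called in both directions. MPO, the peroxidase of primary granules, was called higher in MOLM13 at 6.55, 6.75 and 6.66 RPM in MV411 and 26.2, 30.4 and 32.3 RPM in MOLM13 (-2.07 ± 0.0879). ELANE, neutrophil elastase, was at 92.8, 98.2 and 84.4 RPM in MV411 and 307, 279 and 306 RPM in MOLM13, a difference of -1.69 ± 0.0773, and was called only after GC adjustment (-2.65). MS4A3, a membrane protein of granulocyte-monocyte progenitors (hg38 chromosome 11, 60056665 to 60071115), was at 594, 552 and 574 RPM in MV411 and 5.91, 7.09 and 6.52 RPM in MOLM13, 88.3-fold higher in MV411. PRG2, the major basic protein of eosinophils, was at 53.4, 40.7 and 51.9 RPM in MV411 and 2.53, 2.52 and 1.58 RPM in MOLM13. Of 33 granulocyte genes 18 were compared, 4 were called higher in MV411 and 1 in MOLM13, with a median of 0.23, and after GC adjustment the counts were 2 and 2. The shares of all genes were 7.64% and 4.32%, and 5.85% and 4.48% after GC adjustment. Among 18 S100 genes S100A4 alone of the 10 compared was called, at 264, 286 and 280.3 RPM in MV411 and 32.3, 34.3 and 37.0 RPM in MOLM13.

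Stem and progenitor markers gave 2 calls in MV411 and 3 in MOLM13 among 10 genes compared of 28 listed, with a median of -0.19. These counts stand beside 7.64% and 4.32% of all genes. NPR3, a receptor that clears natriuretic peptides, was at 0.0377, 0 and 0.0757 RPM in MV411 and 52.2, 57.0 and 54.5 RPM in MOLM13, a ratio of 1420.1 with a 95% interval of 486 to 6889. CD38, an enzyme of the cell surface that marks more mature progenitors, was at 1.66, 2.26 and 1.63 RPM in MV411 and 10.1, 9.29 and 9.64 RPM in MOLM13, and its call was lost after GC adjustment (-1.79). CD34 had 0, 0.119 and 0.0757 RPM in MV411 and 0, 0 and 0.0395 in MOLM13, and PROM1 (CD133) had 0.0377, 0 and 0 and 0, 0 and 0, so both stem cell antigens were below the minimum in both lines. GATA2, a factor of early progenitors, was at 18.6, 16.6 and 20.6 RPM in MV411 and 3.96, 4.22 and 4.03 RPM in MOLM13, and its call was lost after GC adjustment (1.10), so that the list kept 1 call in MV411 and 2 in MOLM13.

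Transcription factors of blood cells were called in both directions. Of 63 listed 48 were compared, 7 were called higher in MV411 and 3 in MOLM13, beside 7.64% and 4.32% of all genes, with a median of 0.41, and after GC adjustment the counts were 3 and 4. SPI1 (PU.1), the master factor of the monocyte lineage, was at 166, 171 and 159 RPM in MV411 and 46.6, 44.6 and 46.3 RPM in MOLM13, 3.60 times as high in MV411 and just short of 4-fold. CEBPA, RUNX1 and IRF8 differed by 0.34 ± 0.0316, 0.65 ± 0.0270 and 0.70 ± 0.0396. IRF4, a factor of dendritic and plasma cells, was at 14.5, 15.9 and 14.96 RPM in MV411 and 0.110, 0.116 and 0.198 RPM in MOLM13. RUNX3 was at 119.8, 125 and 124 RPM in MV411 and 17.8, 16.1 and 16.8 RPM in MOLM13, and IRF5, which turns on inflammatory cytokines, at 95.2, 105 and 99.0 RPM in MV411 and 14.8, 14.9 and 12.5 RPM in MOLM13. MOLM13 was the higher for PAX5, the factor of B cell identity, at 0.603, 0.596 and 1.10 RPM in MV411 and 52.4, 53.6 and 52.8 RPM in MOLM13, and for ZEB1, a repressor of epithelial genes, at 0.452, 0.556 and 0.568 RPM in MV411 and 13.1, 13.4 and 12.5 RPM in MOLM13. MYC differed by 0.39 ± 0.0243, and was at -0.18 after GC adjustment.

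Markers of other cell types were few but not absent. Their calls stand beside 7.64% of all genes higher in MV411 and 4.32% higher in MOLM13. Of 27 erythroid and megakaryocyte genes 7 were compared and 2 called higher in MV411, ITGA2B and VWF (VWF was at 1.98 after GC adjustment and no longer called), and the list summed to 73.4 to 77.1 RPM in MV411 and 20.2 to 20.6 RPM in MOLM13. Of 21 B cell genes 7 were compared, with BLK and, before GC adjustment alone (1.69 after it), IGLL1 higher in MV411 and PAX5 and BANK1 higher in MOLM13, and sums of 18.9 to 21.6 RPM and 96.0 to 102 RPM. BANK1, an adaptor of the B cell receptor, was at 0.301, 0.159 and 0.379 RPM in MV411 and 41.0, 43.2 and 45.8 RPM in MOLM13. Of 20 T and NK cell genes NKG7 and NCAM1 were compared, and the sums were 37.0 to 37.6 RPM and 114 to 121 RPM. NCAM1 (CD56), an adhesion molecule that some myeloid leukaemias carry, was at 0.716, 0.437 and 0.492 RPM in MV411 and 102, 106 and 109.6 RPM in MOLM13, 192-fold higher in MOLM13. Of 19 epithelial, fibroblast and endothelial genes 5 were compared, with PECAM1 and VWF higher in MV411 and KRT18 higher in MOLM13, at 1.85, 1.59 and 1.97 RPM in MV411 and 19.1, 20.48 and 20.3 RPM in MOLM13, and 1 and 2 calls after GC adjustment. In these 4 lists 9, 5, 5 and 7 genes had no read in any of the 6 libraries. The part of other cells in these values was not tested.

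Output of the ERK pathway, which FLT3 drives, was called higher in MOLM13 in 4 of 15 genes compared and in MV411 in 2, out of 18 listed (4 and 1 after GC adjustment). Of all genes 4.32% were called higher in MOLM13 and 7.64% higher in MV411. The list's median was 0.10, as was that of all genes. The 4 higher in MOLM13 include 3 inhibitors that the pathway induces on itself. Related genes of the list were not called, with DUSP4 at 1.95, DUSP5 at 0.42, DUSP6 at 0.06 and SPRED2 at 0.22. Of the 15 genes 9 had a difference above 0 and 6 below. SPRED1 had 0, 0 and 0 RPM in MV411 and 30.5, 30.2 and 30.0 in MOLM13, at least 787-fold higher (hg38 chromosome 15, 38252836 to 38357249). SPRY2 was at 2.97, 2.70 and 3.18 RPM in MV411 and 44.7, 45.6 and 46.0 RPM in MOLM13 and SPRY4 at 0.226, 0.199 and 0.227 RPM in MV411 and 8.55, 9.25 and 8.18 RPM in MOLM13. CCND1, the cyclin D1 gene, was the fourth, at 1.13, 0.993 and 1.40 RPM in MV411 and 11.1, 12.3 and 10.4 RPM in MOLM13. PHLDA1 was higher in MV411, at 15.2, 12.8 and 14.05 RPM in MV411 and 2.42, 2.25 and 2.13 RPM in MOLM13. EGR1 was the other gene called higher in MV411 (2.00 ± 0.0926), where the list has 1 call after GC adjustment. STAT5 targets were all 18 compared, with 2 called higher in MV411 and 1 in MOLM13, beside 7.64% and 4.32% of all genes. Their median was 0.58. PIM1, a survival kinase, was at 132, 141 and 151 RPM in MV411 and 19.97, 19.8 and 19.5 RPM in MOLM13, whereas SOCS2, a feedback inhibitor of cytokine receptors, was at 41.6, 41.6 and 40.5 RPM in MV411 and 221, 222 and 219 RPM in MOLM13.

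The main survival genes of the BCL2 family were less than 4-fold apart, while some other members were called. MCL1 and BCL2L1 differed by 0.08 ± 0.0420 and 0.96 ± 0.0565, and of 16 family members compared of 19 listed 2 were called in each direction, beside 7.64% and 4.32% of all genes, with a median of 0.19. BCL2L10, a relative of BCL2, was at 10.7, 11.4 and 10.8 RPM in MV411 and 0.0734, 0 and 0 RPM in MOLM13, a ratio of 428 with a 95% interval of 118 to 3538. BMF, a death-promoting member, differed by 2.36 ± 0.0940 and was not called after GC adjustment (1.52). BIK and HRK, which also promote death, were the 2 higher in MOLM13, with BIK at 3.73, 3.26 and 3.86 RPM in MV411 and 15.4, 17.3 and 17.3 RPM in MOLM13 and HRK at 0, 0 and 0 RPM in MV411 and 1.62, 1.82 and 1.502 RPM in MOLM13, at least 42.9-fold higher.

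CDKN2A and CDKN2B, neighbours on chromosome 9, had no reads in MOLM13. CDKN2A, which encodes the tumour suppressors p16 and ARF (hg38 chromosome 9, 21967752 to 21995324), had 27.6, 30.9 and 26.3 RPM in MV411 and 0, 0 and 0 in MOLM13, at least 737-fold higher. CDKN2B, the neighbouring p15 gene (hg38 chromosome 9, 22002903 to 22009313), had 6.74, 4.45 and 4.69 and 0, 0 and 0 RPM, at least 139-fold higher. CDKN2B-AS1, a non-coding gene that overlaps both, was at 4.03, 4.17 and 4.20 RPM in MV411 and 0.441, 0.542 and 0.356 RPM in MOLM13. MTAP, the next gene on the list in this band, was at 64.5, 62.7 and 66.0 RPM in MV411 and 56.5, 60.7 and 58.1 RPM in MOLM13, a difference of 0.14 ± 0.0368. Neither DNA copy number nor methylation was measured in these libraries, so a lost and an unused locus cannot be told apart. CDKN1C had 2.30, 1.79 and 2.12 RPM in MV411 and 0, 0 and 0 in MOLM13, and its call was lost after GC adjustment. All 9 listed inhibitors and neighbours were compared, with 4 called higher in MV411 and 0 in MOLM13. CDKN1A, the p21 gene, was at 229, 229 and 241 RPM in MV411 and 160.3, 159 and 163 RPM in MOLM13.

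Genes of proliferation did not pass the rule. None of 28 DNA replication genes and none of 25 mitosis genes was called in either direction, beside 7.64% and 4.32% of all genes. Their medians were -0.49 and -0.33 against 0.10 for all genes, and -0.50 and -0.18 after GC adjustment. Below 4-fold, 22 replication and 17 mitosis genes were wholly apart with MOLM13 above, and 5 of each with MV411 above. Of all genes 89.3% were wholly apart at any size. None of 35 cytosolic ribosomal protein genes was called (median -0.13). Among 19 cyclins and cyclin-dependent kinases CCNA1 and CCND1, given above, were the only calls.

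Calls among glycolysis and cholesterol genes were all higher in MV411, beside 7.64% of all genes called higher in MV411 and 4.32% higher in MOLM13. Of 26 glycolysis and sugar transport genes, all compared, 5 were called higher in MV411 and 0 in MOLM13, with a median of 0.86 (0.68 and 5 calls after GC adjustment). ALDOC, an aldolase, was at 343, 426 and 404 RPM in MV411 and 9.36, 10.6 and 13.2 RPM in MOLM13. The hexose carrier gene SLC2A6 was at 16.005, 12.04 and 14.8 RPM in MV411 and 0.0367, 0.0774 and 0.158 RPM in MOLM13, the hexokinase HK3 of myeloid cells at 19.02, 18.6 and 17.7 RPM in MV411 and 0.514, 0.697 and 0.395 RPM in MOLM13, ENO2 at 37.6, 43.4 and 39.3 RPM in MV411 and 2.02, 2.52 and 1.74 RPM in MOLM13 and PFKFB4, which sets the level of a glycolysis activator, at 45.8, 49.0 and 42.7 RPM in MV411 and 2.42, 2.56 and 2.37 RPM in MOLM13. Cholesterol synthesis had 3 calls in MV411 and 0 in MOLM13 among 24 genes compared of 25 listed, and a median of 1.01 (1.03 after GC adjustment). LSS, which closes the sterol rings, was at 301, 316 and 315 RPM in MV411 and 51.5, 56.5 and 56.2 RPM in MOLM13. TM7SF2, a sterol reductase, was at 42.3, 38.1 and 40.3 RPM in MV411 and 2.97, 2.98 and 3.32 RPM in MOLM13. MVD of the mevalonate pathway was at 80.2, 75.5 and 77.6 RPM in MV411 and 12.7, 13.98 and 14.7 RPM in MOLM13, and its call was lost after GC adjustment (1.49). The list still held 3 calls after adjustment, so another member was called only then.

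Stress genes were called in both directions, beside 7.64% of all genes called higher in MV411 and 4.32% higher in MOLM13. HMOX1, haem oxygenase 1, which opens the haem ring (hg38 chromosome 22, 35381096 to 35394207), was at 107, 92.2 and 83.1 RPM in MV411 and 0.477, 0.271 and 0.395 RPM in MOLM13, 246-fold higher in MV411. Of 23 NRF2 and glutathione genes compared of 30 listed 3 were called higher in MV411 and 1 in MOLM13, the latter being MGST1 at 32.6, 33.3 and 34.3 RPM in MV411 and 189, 188 and 187 RPM in MOLM13, whose call was lost after GC adjustment (-1.92), which left 2 and 0. FTH1, the heavy chain of ferritin, was at 932, 914 and 927 RPM in MV411 and 184, 179 and 186 RPM in MOLM13. Among 23 genes of the ATF4 amino-acid stress response compared of 25 listed 2 were called in each direction, and 1 in MV411 and 2 in MOLM13 after GC adjustment. DDIT4, an inhibitor of mTORC1, was at 45.7, 40.1 and 40.1 RPM in MV411 and 405, 419 and 388 RPM in MOLM13, and ATF5 at 271, 285 and 266 RPM in MV411 and 30.0, 28.6 and 31.2 RPM in MOLM13.

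Chromatin regulators and related genes, some of them mutated in this leukaemia, were less than 4-fold apart, with 2 exceptions among 32 genes compared. The exceptions were 1 in each direction, beside 7.64% of all genes higher in MV411 and 4.32% higher in MOLM13. BMI1, a subunit of Polycomb complex 1 (hg38 chromosome 10, 22321099 to 22331706), was at 35.5, 32.1 and 30.6 RPM in MV411 and 637, 639 and 643 RPM in MOLM13, 19.5-fold higher in MOLM13. The read-through gene COMMD3-BMI1 shares its exons and was at 64.8, 62.1 and 60.01 RPM in MV411 and 757, 755 and 753 RPM in MOLM13, so reads of the pair are uncertain. SPAG6, the next gene compared (hg38 chromosome 10, 22345496 to 22417610), was at 0, 0.0397 and 0 RPM in MV411 and 6.17, 6.58 and 5.34 RPM in MOLM13. CBX7, another Polycomb subunit, was at 6.44, 10.1 and 8.48 RPM in MV411 and 1.62, 1.67 and 1.70 RPM in MOLM13, and its call was lost after GC adjustment (1.42). Of 25 imprinted genes, which are used from 1 parental copy, 16 were compared and 4 called higher in MV411, of which CDKN1C, given above, lost its call after GC adjustment. NDN had 10.5, 11.1 and 10.4 RPM in MV411 and 0, 0 and 0 in MOLM13, at least 278-fold higher, MEST was at 22.2, 23.4 and 24.3 RPM in MV411 and 1.21, 1.43 and 1.34 RPM in MOLM13, and PEG3 at 3.92, 3.93 and 3.63 RPM in MV411 and 0.0734, 0.310 and 0.0395 RPM in MOLM13. Of 22 histone genes 7 were compared and 4 called higher in MV411. The list summed to 181 to 194 RPM in MV411 and 41.8 to 45.8 RPM in MOLM13, and most of it came from H1F0 (mean 76.2 and 10.95 RPM) and H2AFX (69.0 and 23.4 RPM), which make polyadenylated transcripts.

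Several of the largest differences lay outside these lists. They are ranked by the difference of mean log2(RPM + 0.5), which limits the size a gene without reads can reach, so the order differs from that of the ratios. Among genes of at least 20 RPM in the higher line, PITX1, a homeobox factor of the hind limb and pituitary (hg38 chromosome 5, 135027734 to 135034789), led on the MV411 side with 189, 195 and 165 RPM in MV411 and 0, 0 and 0 in MOLM13, at least 4773-fold higher. TGFBI, a secreted matrix protein of monocytes and other cells (hg38 chromosome 5, 136028988 to 136063818), was at 168, 199.99 and 181 RPM in MV411 and 0.0734, 0.0387 and 0.0395 RPM in MOLM13. ENPP2 (autotaxin), which makes the lipid mediator lysophosphatidic acid, was at 181, 170.3 and 172 RPM in MV411 and 0.367, 0.155 and 0.119 RPM in MOLM13. B3GNT7, a glycosyltransferase, was at 165, 172 and 157 RPM in MV411 and 0.294, 0.116 and 0.158 RPM in MOLM13, and KCNE1L, a potassium channel subunit now named KCNE5, at 107, 100.5 and 103 RPM in MV411 and 0.0367, 0.271 and 0.119 RPM in MOLM13. HORMAD1, a protein of meiotic chromosomes, was at 61.8, 65.6 and 58.8 RPM in MV411 and 0.110, 0.0774 and 0.119 RPM in MOLM13. PROSER1 and the zinc finger gene ZNF93 were at 64.6, 61.0 and 60.2 and 47.5, 48.3 and 49.0 RPM in MV411, with 1 read each over the 3 MOLM13 libraries, and their ratios had 95% intervals of 871 to 191814 and 679 to 149466. TARP, which overlaps the T cell receptor gamma locus so that its reads are uncertain, was at 142, 139 and 151 RPM in MV411 and 0.404, 0.503 and 0.277 RPM in MOLM13. TARP had no GC share, so GC adjustment could not be applied to it. SIGLEC12 and HMOX1, given above, belong here too, and 1 further entry, a microRNA gene with no match in the annotation, is given no value.

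On the MOLM13 side LAPTM4B, a membrane protein of lysosomes and endosomes (hg38 chromosome 8, 97775788 to 97853013), led on this scale with 0.188, 0.159 and 0.151 RPM in MV411 and 347, 339 and 345 in MOLM13, a 2066-fold difference. DACH1 followed, as given above. SLC7A2, a carrier of arginine and lysine (hg38 chromosome 8, 17494069 to 17570566), had 0, 0 and 0 and 157, 161 and 154 RPM, at least 4093-fold higher. MYO6, a myosin that walks towards the minus end of actin, was at 0.0377, 0.0795 and 0 RPM in MV411 and 156, 153 and 153 RPM in MOLM13. The phosphatase PTPN13 and ZNF521, a zinc finger factor of early progenitors, had 0 reads in MV411 and 142, 136 and 138 and 126, 119.8 and 123 RPM in MOLM13, at least 3618-fold and 3205-fold higher. WNT7B, a secreted Wnt ligand, DSG2, a desmosome cadherin, and NR2F1, an orphan nuclear receptor, likewise had 0 reads in MV411 and 88.3, 81.5 and 81.8, 76.5, 70.9 and 74.9 and 56.8, 57.8 and 61.9 RPM in MOLM13. DYSF, a protein of membrane repair, was at 0.0377, 0.0795 and 0 RPM in MV411 and 61.4, 65.9 and 66.0 RPM in MOLM13, and the small GTPase RAB13 at 0.0753, 0.119 and 0.227 RPM in MV411 and 66.7, 69.1 and 69.1 RPM in MOLM13. HOXA13 completes the 12.

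Some called genes stood next to each other on a chromosome. Runs of 3 or more neighbouring compared genes called in the same direction numbered 41 with 144 genes for MV411 and 17 with 59 genes for MOLM13. The longest, of 7 genes, was HOXA3 to HOXA7 with HOXA-AS2 and HOXA-AS3 (hg38 chromosome 7, 27107010 to 27156675), and a second run of 4 held HOXA11, HOXA11-AS, HOXA13 and HOTTIP. The homeobox pair DLX5 and DLX6 formed a run with DLX6-AS1, with 0 reads in MV411 and 49.7, 44.2 and 46.7, 16.96, 17.4 and 17.8 and 4.41, 3.99 and 4.03 RPM in MOLM13. In MV411 the Siglec genes filled 3 runs on chromosome 19 and the LILR genes 1 (KIR3DX1, LILRA2, LILRA1, LILRB1 and LILRB4). CCR1, CCR2 and CCRL2 belonged to 1 on chromosome 3, and HLA-DRA, HLA-DRB5, HLA-DRB1 and HLA-DQB1 formed 1 on chromosome 6.

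Other runs also held several genes of a family. The metallothioneins MT2A, MT1E, MT1F, MT1G and MT1X, which bind zinc and copper, lay together on chromosome 16 (56608584 to 56684196). MT2A was at 111, 171 and 107 RPM in MV411 and 8.08, 8.13 and 6.84 RPM in MOLM13 and MT1G at 63.5, 78.6 and 57.0 RPM in MV411 and 8.52, 7.20 and 7.51 RPM in MOLM13, and reads of such similar genes may be shared. The fatty acid desaturases FADS1, FADS2 and FADS3 lay in a run with BEST1 and FTH1 on chromosome 11, with FADS2 at 578, 545 and 613 RPM in MV411 and 75.5, 93.6 and 100 RPM in MOLM13. MS4A3, MS4A2, MS4A6A and MS4A4A formed a further run on that chromosome, with MS4A6A at 377, 399 and 378 RPM in MV411 and 14.9, 16.4 and 17.4 RPM in MOLM13. A run of 4 zinc finger genes on chromosome 19 (19865830 to 20565781) held ZNF253, ZNF93, ZNF486 and ZNF737, and another (57940833 to 58213562) ZNF256, ZNF606, ZNF329 and ZNF274. ZNF606 had 14.7, 13.8 and 14.5 RPM in MV411 and 0, 0 and 0 in MOLM13, and ZNF256 9.79, 9.46 and 9.73 and 0, 0 and 0. The calls of MT1E (1.77) and FADS1 (1.76) and, among the LILR genes, LILRA2 (1.65) were lost after GC adjustment. TBC1D3H and TBC1D3F had the same value in every library, and APOC2 and APOC4-APOC2 nearly so, so these are not separate measurements. TBC1D3H, TBC1D3F and APOC4-APOC2 were not called after GC adjustment, where a gene without a GC share also counts as not called.

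The medians of some chromosomes were shifted. Relative to the median of all genes, the median difference was -0.96 for 238 genes of chromosome 13 (-1.005 to -0.916 over the 9 pairs of libraries), -0.72 for 560 genes of chromosome 6 and -0.60 for 500 genes of chromosome 10, each lower in MV411. It was 0.60 for 982 genes of chromosome 19, 0.42 for 354 of chromosome 22 and 0.37 for 625 of chromosome 16, each higher in MV411. After GC adjustment the first 3 were -0.59, -0.52 and -0.45, and the last 3 were 0.19, 0.14 and 0.06. On chromosome 13, 31 genes were called higher in MOLM13 and 7 in MV411, and on chromosome 19, 16 and 143. Copy number was not measured, and its part in these shifts was not tested.

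**Figure D5:**
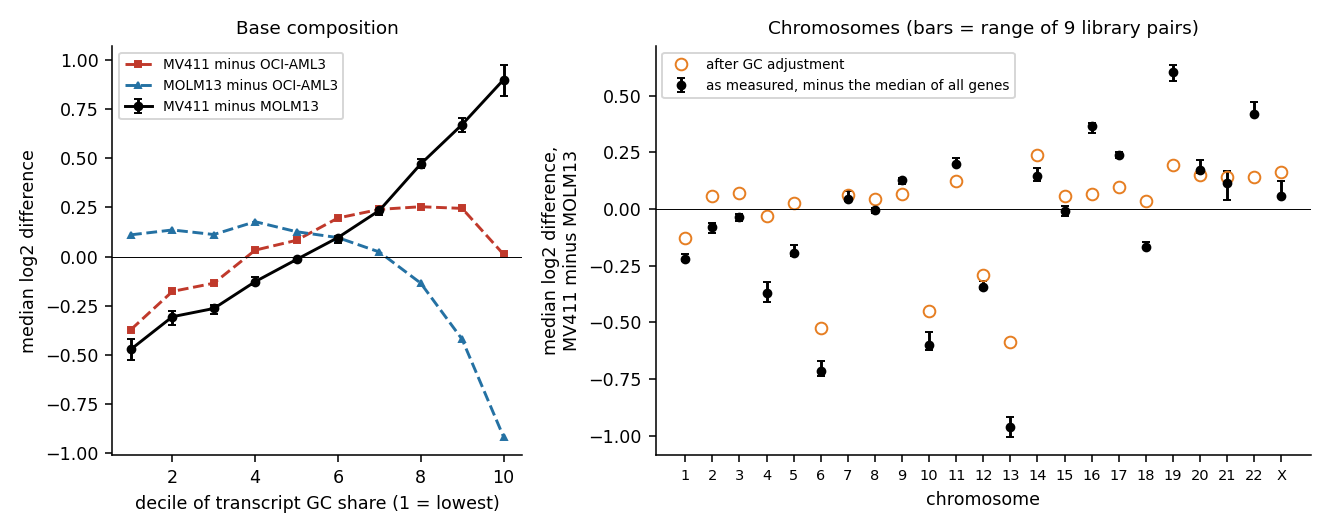
Left, median log2 difference of the genes in each decile of transcript GC share, for MV411 minus MOLM13 (bars show the range of 9 library pairs) and for each line minus OCI-AML3. Right, median difference of each chromosome minus that of all genes, as measured and after GC adjustment. The left curve climbs from -0.47 to 0.90, and chromosomes 13, 6 and 10 stay lowest in both versions of the right panel while chromosomes 19, 22 and 16 move towards 0.

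OCI-AML3, which has mutant NPM1 and no MLL fusion and was also kept in DMSO for 4 days, served as a further line. Its 3 libraries were deeper, with 60855497 to 72994481 reads, and come from a table of their own. By the same rule MV411 differed from it in 1819 of 13721 genes (13.3%) and MOLM13 in 1930 of 13485 (14.3%), beside 1568 of 13114 between MV411 and MOLM13. These comparisons share libraries and each has its own set of compared genes. Of the 1002 genes higher in MV411, OCI-AML3 was nearer to MV411 in 517 and to MOLM13 in 485, and of the 566 higher in MOLM13 it was nearer to MV411 in 270 and to MOLM13 in 296. HOXA11 and HOXA13, high in MOLM13, were at 60.5, 59.8 and 59.5 and 122, 122 and 125 RPM in OCI-AML3, whereas HOXA7 was at 0.810, 0.699 and 0.608. The receptor genes RET, CCR2 and CSF1R were at 117, 120.0 and 115, 41.3, 43.3 and 39.8 and 16.8, 16.5 and 16.1 RPM. LAPTM4B, nearly absent in MV411, was at 147, 153 and 151 RPM, while PITX1, silent in MOLM13, was at 0.0764, 0.0548 and 0.0822. DACH1, BMI1 and KITLG were lower in OCI-AML3 than in MOLM13, at 1.497, 1.40 and 1.36, 37.4, 39.4 and 38.8 and 0.0764, 0.151 and 0.148 RPM. CDKN2A was at 7.76, 8.32 and 7.76 RPM, between the 2 lines.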

How the data were processed

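The deposited tables hold 1 value per gene and library, a signal that the authors normalised with DESeq version 2 on hg38, per the submitters' processing notes. The aligner, counting program and annotation are not given in the sources used here. Each library's deposited values proved to be read numbers over a single factor (100% whole, tolerance 0.001), and these reads were recovered and rescaled to 1000000 per library (RPM), which removes the authors' separate scaling of each table. Spike-in reads were not used here. Depth was 25166887 to 27240357 reads per library, and bounds (3 reads) and 95% intervals cover counting error only.

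Genes with at least 1 RPM in 3 libraries were compared by the difference of mean log2(RPM + 0.5). A call needed a difference of 2 and no overlap of the 3 and 3 libraries. Because line and batch are confounded, edgeR 4.0.16, DESeq2 1.42.0 and limma 3.58.1 served as alternatives, with scaling, pseudocount, filter, left-out libraries and, chosen after seeing the data, a correction by 20 classes of GC share of the transcript of median length in GENCODE. The calls were tested on simulated data. Positions come from RefSeq, which matched 11946 symbols and 893 synonyms and left 275 genes without a match.

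Named genes were 36 preset genes, the 12 largest differences per direction at 20 RPM or more, up to 5 called members of each of 41 lists, and called genes in runs of 3 or more neighbours; some of these are not reported here. The comparison, the lists and the preset genes were chosen with earlier results of these data known. Libraries of a line differed beyond counting noise (chi-square per degree of freedom 1.78 to 3.80 over 6 pairs), so none was counted as a repeat.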

Additional observations from a re-analysis of the deposited data

How the results depend on the processing

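The counts of 1002 genes higher in MV411 and 566 higher in MOLM13 became 934 and 596 with TMM factors, 920 and 613 with median-of-ratios factors, 851 and 705 with the deposited values unscaled, and 1274 and 669 with a pseudocount of 0.1 RPM. A pseudocount of 2 RPM gave 550 and 349, and a minimum of 10 RPM gave 559 and 355, as fewer low genes can reach 4-fold. Leaving out 1 library at a time gave 978 to 1012 and 560 to 576. GC adjustment, chosen after seeing the data, gave 743 and 569 among the 12707 genes with a GC share. None of the 323 called genes chosen by the naming rule changed direction under the alternatives in which its difference was computed. A gap of at least 4-fold leaves little room for a reversal, so this is no test of the calls.

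Asking also for an adjusted p (Benjamini-Hochberg) under 0.05 left 1002 and 566 with edgeR, DESeq2 and limma, and with the replicate block in edgeR. Alone, edgeR called 11636 of 13114 genes (88.7%), DESeq2 11333 (86.4%) and limma 11674 (89.0%). With the replicate block edgeR called 11659 (88.9%). The numbers are not known to pair the cultures, and deviations of same-numbered libraries correlated at -0.000962, -0.00173 and 0.0450.

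Several counts of list members moved by over 1.5 times. A pseudocount of 2 RPM gave 5 HOXA genes (8 in the report), 5 chemokine and chemoattractant receptors (9), 3 transcription factors (7), 4 integrins (7), 1 CDK inhibitor or neighbour (4), 2 histone genes (4) and 2 imprinted genes (4). A minimum of 10 RPM gave 3 HOXA genes, 4 chemokine and chemoattractant receptors, 4 chemokines and cytokines (8), 4 integrins, 1 CDK inhibitor, 2 histone genes and 2 imprinted genes. Unscaled values gave 4 transcription factors, and GC adjustment gave 3 transcription factors and 2 granulocyte genes (4). Beyond the fewer genes compared or the larger pseudocount, the cause was not tested. Depth limits genes near 1 RPM, where a library holds about 25.2 to 27.2 reads.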

Other observations

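The gene sets below were formed after their values were seen, so their counts are descriptions. Zinc finger genes named ZNF, most of which encode repressors of the KRAB family, were called on chromosome 19 in 31 of 216 compared as higher in MV411 and in 10 as higher in MOLM13, with a median difference of 0.50 that was 0.49 after GC adjustment. On the other chromosomes 9 of 226 were higher in MV411 and 4 in MOLM13, with a median of 0.15. The other 766 genes of chromosome 19 had a median of 0.75, which was 0.09 after GC adjustment, with 112 and 6 called.

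Homeobox genes outside the HOX clusters were called higher in MOLM13 in 10 of 33 compared and in MV411 in 3. Beside DLX5, DLX6, ZEB1 and PITX1, the called genes included DLX3, DLX4, SIX2, SIX4, MEIS2, MEIS3, PBX4 and OTX1, of which MEIS3 and PBX4 were no longer called after GC adjustment. All 5 metallothioneins compared were higher in MV411 (median 2.71, and 2.27 after GC adjustment), as were all 3 fatty acid desaturases of the FADS family and 4 of 6 MS4A genes. Of 6 GIMAP genes, small GTPases of lymphoid cells, 3 were called higher in MV411 and 0 in MOLM13, though 2 of the 3, GIMAP5 and its read-through with GIMAP1, share exons. Among 16 myosins 5 were higher in MV411 and 2 in MOLM13.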
